A study of Mus musculus with 9 samples.

Results

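The genes described here encode 9 brush border hydrolases, the enzymes that absorptive enterocytes hold in the membrane facing the gut lumen: Anpep, Dpp4, Mep1a, Mep1b, Enpep, Ace, Lct, Sis and Alpi. Members were taken by annotated gene symbol, and 13 of the 45101 probe sets on the array carried 1 of these symbols. They covered 8 of the 9 genes: Dpp4 had 4 probe sets, Mep1a and Ace had 2 each, and Anpep, Mep1b, Enpep, Lct and Alpi had 1 each. No probe set carried the symbol of Sis, the sucrase-isomaltase gene, which is not analysed here. All 13 probe sets passed the filter on low signals and were tested. On build GRCm38.p6 the measured genes lie on chromosome 1 (Alpi at 87098002 to 87101606, Lct at 128284756 to 128328318), chromosome 2 (Dpp4, 62330073 to 62412315), chromosome 3 (Enpep, 129269177 to 129332749) and chromosome 7 (Anpep, 79821803 to 79848210). Ace is on chromosome 11 (105967948 to 105989964), Mep1a on chromosome 17 (43474324 to 43504143) and Mep1b on chromosome 18 (21072344 to 21100199).

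Mouse small intestinal organoids, epithelial cultures without the surrounding tissue, were grown for 6 days and profiled on Affymetrix mouse genome arrays. There were 3 groups of 3 arrays: organoids given a Tgfbeta inhibitor at 20 uM (in the protocol, an inhibitor of TgfbR1/2), organoids given the Tgfbeta 1 ligand at 0.04 ng/mL, and untreated organoids. Both treatments ran for 5 days from day 1. The labels give no mouse strain, age, inhibitor name or vehicle. They also do not say that replicates came from separate cultures, so every p-value reflects array-to-array spread alone, and this may be technical.

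Digestion of peptides and sugars is completed on the brush border. Aminopeptidases such as Anpep and Enpep and dipeptidyl peptidases such as Dpp4 trim short peptides, the meprins cut longer ones, lactase splits milk sugar, and intestinal alkaline phosphatase removes phosphate groups, including those of bacterial lipopolysaccharide. Enterocytes acquire these enzymes as they leave the crypt and move onto the villus. Transcription of such genes in the intestine is known to depend on HNF4, CDX and GATA factors, and TGF-beta signals are known to pass through SMAD proteins.

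The 250 bases before the transcription start are shown for 6 genes, chosen because their RNA followed different patterns: Anpep, Dpp4 and Mep1a, then Enpep, then Lct, and last Alpi. They come from RefSeq on build GRCm38.p6, from which windows were taken for 8 of the 9 genes. Mep1b was left out of this step. The 6 windows shown are written 5′ to 3′ on the gene's strand, which is the minus strand for all 6. Their positions are chr7:79848211-79848460 (Anpep), chr2:62412232-62412481 (Dpp4), chr17:43502774-43503023 (Mep1a), chr3:129332750-129332999 (Enpep), chr1:128328319-128328568 (Lct) and chr1:87101607-87101856 (Alpi). The Mep1a window lies inside the gene span given above, and the Dpp4 window lies partly inside its span. The starts used for Mep1a and Dpp4 are therefore not the outer ends of these genes. Capitals mark matches, on either strand, to searched motifs. The HNF4 core was searched as CAAAGT. For CDX factors the letters were TTTAT. For GATA factors they were AGATAA. The SMAD palindrome was searched as GTCTAGAC.
Anpep: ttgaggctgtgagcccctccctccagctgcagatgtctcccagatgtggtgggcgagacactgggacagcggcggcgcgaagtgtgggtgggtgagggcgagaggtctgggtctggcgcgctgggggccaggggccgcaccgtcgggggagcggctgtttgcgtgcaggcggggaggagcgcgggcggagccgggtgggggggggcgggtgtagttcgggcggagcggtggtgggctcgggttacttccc
Dpp4: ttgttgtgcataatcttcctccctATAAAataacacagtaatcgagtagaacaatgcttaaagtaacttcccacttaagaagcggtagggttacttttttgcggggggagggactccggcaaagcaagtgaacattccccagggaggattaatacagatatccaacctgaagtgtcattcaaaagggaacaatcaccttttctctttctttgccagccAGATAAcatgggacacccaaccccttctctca
Mep1a: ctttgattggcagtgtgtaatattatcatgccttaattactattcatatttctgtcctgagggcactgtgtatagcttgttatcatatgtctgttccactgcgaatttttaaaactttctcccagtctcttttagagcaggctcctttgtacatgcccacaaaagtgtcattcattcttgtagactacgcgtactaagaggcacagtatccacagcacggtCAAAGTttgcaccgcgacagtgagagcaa
Enpep: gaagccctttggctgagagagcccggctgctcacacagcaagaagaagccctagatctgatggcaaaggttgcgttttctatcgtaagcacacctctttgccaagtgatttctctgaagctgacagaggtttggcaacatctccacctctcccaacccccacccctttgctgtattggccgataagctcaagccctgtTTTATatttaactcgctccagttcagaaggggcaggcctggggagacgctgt
Lct: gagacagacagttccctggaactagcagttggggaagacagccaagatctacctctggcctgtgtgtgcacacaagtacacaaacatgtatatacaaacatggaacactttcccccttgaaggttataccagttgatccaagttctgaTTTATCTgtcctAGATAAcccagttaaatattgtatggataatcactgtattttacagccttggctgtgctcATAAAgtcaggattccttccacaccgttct
Alpi: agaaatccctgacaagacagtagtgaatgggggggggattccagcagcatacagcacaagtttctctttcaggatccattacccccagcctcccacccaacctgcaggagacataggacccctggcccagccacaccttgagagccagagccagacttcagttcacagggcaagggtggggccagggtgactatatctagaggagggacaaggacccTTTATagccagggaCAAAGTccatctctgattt

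The window of Anpep held none of the searched letters and was the richest of the 6 in G and C, at 72.8% against a median of 52.4% over all 32851 promoter windows. Mep1a held the HNF4 core at bases -29 to -24 before its start, and Alpi held it at bases -19 to -14. Across all windows 12.6% held that core. Dpp4 had the GATA letters at bases -32 to -27. Lct had them in a pair of places, at bases -101 to -96 and -90 to -85, the first overlapping a CDX match. The GATA letters occurred in 9.99% of all windows. The CDX core was present in the windows of Dpp4, Enpep, Lct and Alpi and in 37.3% of all windows, and some of these matches lie where a TATA box would. The SMAD palindrome (0.167% of all windows) matched none of the 6 windows. These are matches of letters only.

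The values are MAS5 signals, a linear intensity per probe set, and the arrays share 1 scale. A probe set is called, and said to have risen or fallen, where limma's 2-sided test across all 28653 tested probe sets gave a Benjamini-Hochberg adjusted p under 0.05. Fold changes are on the log2(signal + 16) scale, where a log2 change is given ± its standard error from the fit, while a mean signal is given ± SD. A gene's main probe set is its brightest. The arrays carried clear epithelial signal: all 7 epithelium markers (such as Epcam, Cdh1 and Vil1) and all 10 absorptive enterocyte markers (such as Fabp1, Apoa1 and Krt20) passed the filter. Of the markers of cells outside the epithelium, 3 of 8 for fibroblasts, 1 of 6 for endothelium and 3 of 6 for leukocytes passed it. Pecam1, Cdh5, Ptprc, Itgam, Cd3e, Col1a1, Col3a1 and Dcn did not.

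With the receptors inhibited, peptidase RNA was called higher throughout the group except for Enpep and 1 dim Dpp4 probe set. Of the 13 probe sets 10 rose and 0 fell, where 15% of all probe sets tested rose and 20.1% fell. By gene, 6 of 8 main probe sets rose: Anpep, Dpp4, Mep1a, Mep1b, Ace and Lct, where 19.9% of the main probe sets of all 12941 genes rose and 22.6% fell. The median log2 change of the 8 genes was 0.91, and -0.01 over all genes. Enpep and Alpi were not called.

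With the ligand, 4 of the 13 probe sets fell and 1 rose, where 5.92% of all probe sets tested fell and 9.73% rose. The 4 that fell belonged to Anpep, Dpp4, Mep1b and Enpep, and Lct rose. The median log2 change of the 8 genes was -0.33, and 0.05 over all genes. Setting ligand against inhibitor arrays directly, 10 probe sets were lower and 1 was higher with the ligand, where 17.9% of all probe sets tested were lower and 29.4% higher. The comparisons share arrays, so their counts are not independent of each other.

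Organoids are mixtures of epithelial cells, and in such bulk RNA a change in the number of enterocytes and a change in RNA per enterocyte cannot be told apart. Of the 10 absorptive enterocyte markers 6 rose and 0 fell with the inhibitor, where 19.9% of all genes rose and 22.6% fell. With the ligand 0 rose and 5 fell, where 12.8% of all genes rose and 8.04% fell. Their summed signal was 93670 to 113700 in inhibitor arrays, 55690 to 62520 in ligand arrays and 73780 to 82400 in untreated arrays. Of 10 markers of stem, Paneth, goblet, enteroendocrine and tuft cells, 0 rose and 4 fell with the inhibitor, and 5 rose and 0 fell with the ligand, against the same shares of all genes. Their summed signal was 18870 to 21720 in inhibitor arrays, 39240 to 45830 in ligand arrays and 32640 to 37470 in untreated arrays. Most of the lower sum with the inhibitor lay in 1 gene, Olfm4. It read 750.2, 695.7 and 1012.6 in inhibitor arrays and 12403.6, 13284.4 and 12894.6 in untreated arrays. Of the 10 markers 6 were not called with the inhibitor, so the sum does not describe these cell types together. The stem cell marker Olfm4 had an inhibitor log2 change of -3.96 ± 0.12 and Lgr5 one of -0.68 ± 0.09. The tuft cell marker Dclk1 had one of -1.17 ± 0.15, but its inhibitor readings of 25.1, 23.6 and 32.8 lay near the level of the filter on low signals. The other tuft cell marker listed, Trpm5, was not called with the inhibitor (-0.18 ± 0.16, limma adjusted p 0.436). Cell cycle genes fell in 8 of 9 tested members with the inhibitor, where 22.6% of all genes fell, and rose in 3 with the ligand, where 12.8% of all genes rose. The part of such shifts in the hydrolase values was not tested. Some hydrolases are also made by leukocytes, and the leukocyte list summed to signals of 328.5 to 379.8 in inhibitor arrays, 183.4 to 246.7 in ligand arrays and 210.7 to 251.6 in untreated arrays. Of the 3 markers that passed the filter Csf1r and Cd68 rose with the inhibitor, and the macrophage marker Adgre1 averaged 56.5 in inhibitor and 55.7 in untreated arrays (log2 change 0.03 ± 0.18, limma adjusted p 0.906). Ptprc, the general leukocyte marker, Itgam and Cd3e stayed under the filter. None of the listed markers is at 0 in these data, and the part of leukocyte RNA was not tested.

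**Figure D1:**
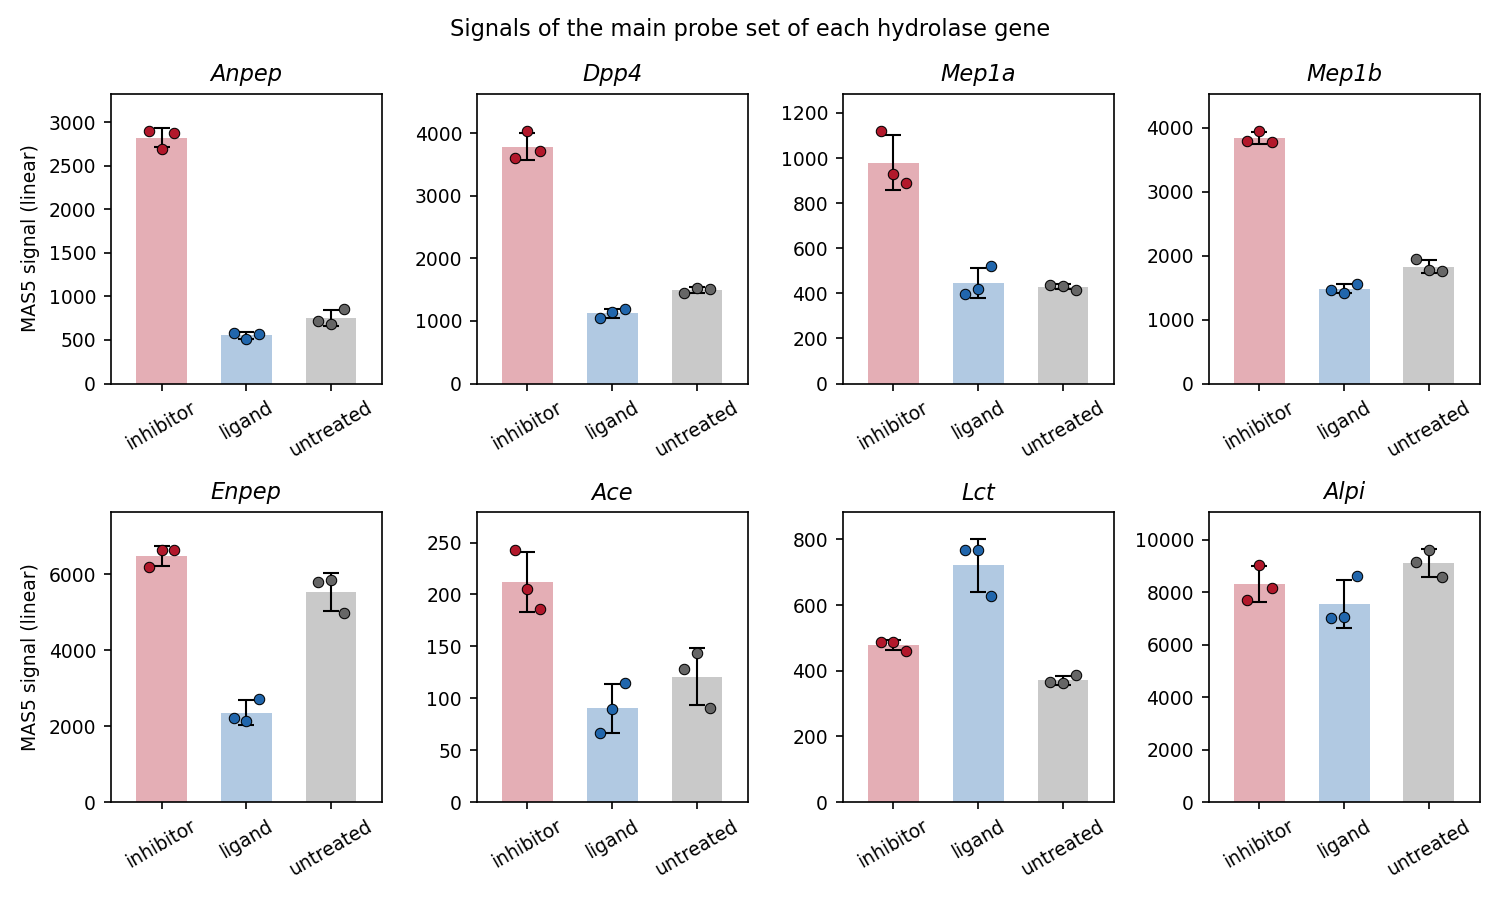
MAS5 signal on a linear axis from 0 for the main probe set of the 8 measured hydrolase genes. Points are the 3 arrays of a group, bars their mean and error bars their SD. Inhibitor arrays lie above all others for Anpep, Dpp4, Mep1a, Mep1b, Ace and, only just, Enpep. Ligand arrays lie lowest for Anpep, Dpp4, Mep1b and Enpep and highest for Lct, and the groups overlap for Alpi.

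Anpep encodes aminopeptidase N, which removes neutral amino acids from the front of peptides. Its probe set read 2895, 2693 and 2876.5 in inhibitor arrays, 585, 506 and 565 in ligand arrays and 713, 679.8 and 855 in untreated arrays. The 3 groups did not overlap. The inhibitor raised Anpep 3.72-fold over untreated (95% confidence interval 3.25 to 4.27, limma adjusted p 3.83e-08). This log2 change ranked 102 by size among the 28653 probe sets tested. With the ligand Anpep fell by 0.43 ± 0.09 on the log2 scale relative to untreated (adjusted p 0.00726 by limma). Between ligand and inhibitor arrays the log2 change was -2.32 ± 0.09, a 5-fold lower value with the ligand.

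Dpp4 encodes dipeptidyl peptidase 4, a serine peptidase that releases dipeptides ending in proline or alanine. Its main probe set, 1416697_at, read 3606, 4029 and 3719 in inhibitor arrays, 1045, 1141 and 1188 in ligand arrays and 1439, 1521 and 1518 in untreated arrays. Again no group overlapped another. The inhibitor raised it 2.52-fold (95% interval 2.25 to 2.81, adjusted p 9.74e-08). The ligand lowered it, with a log2 change of -0.40 ± 0.07 (adjusted p 0.00253).

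The other Dpp4 probe sets were dimmer and did not all follow. Probe set 1459973_x_at read 1135, 1167 and 1348.5 in inhibitor arrays, 407, 458 and 312.5 in ligand arrays and 452, 493 and 512 in untreated arrays. It rose 2.45-fold with the inhibitor (adjusted p 5.34e-06), while its ligand values overlapped the untreated ones and its ligand change of -0.31 ± 0.12 did not pass (adjusted p 0.108). Probe set 1438279_at read 239, 297 and 282 in inhibitor arrays, 167.5, 163 and 136 in ligand arrays and 229.9, 162 and 177 in untreated arrays. It rose 1.41-fold with the inhibitor (adjusted p 0.0132), a call lost without inhibitor replicate 2 (0.0586) or untreated replicate 2 (0.0568). Probe set 1441342_at read 81.6, 87.9 and 110 in inhibitor arrays, 102, 128 and 88.7 in ligand arrays and 103, 98.9 and 86.2 in untreated arrays. All 3 groups overlapped there, with a log2 change of -0.04 for the inhibitor (95% interval -0.37 to 0.29, adjusted p 0.859). Which parts of the transcript the dim probe sets read is not in the files.

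The meprins are secreted or membrane-bound zinc metalloendopeptidases built from alpha and beta subunits. For the alpha subunit, Mep1a probe set 1450719_at read 1118, 931 and 887 in inhibitor arrays, 396, 419 and 520.5 in ligand arrays and 439, 433 and 417 in untreated arrays. Every inhibitor array lay above every other array, while ligand and untreated arrays overlapped. The rise with the inhibitor was 2.22-fold (95% interval 1.88 to 2.62, adjusted p 6.05e-06), and the ligand change was 0.04 (95% interval -0.20 to 0.28, adjusted p 0.854). The second Mep1a probe set, 1447252_s_at, read 229, 251.5 and 236 in inhibitor arrays, 89.7, 98.6 and 111 in ligand arrays and 115, 72.6 and 119.5 in untreated arrays. It gave a similar rise of 2.19-fold with the inhibitor (adjusted p 0.000119) and a ligand change of -0.01 ± 0.16 (adjusted p 0.973).

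Mep1b, the beta subunit, read 3792, 3944.5 and 3775 in inhibitor arrays, 1462, 1422 and 1564 in ligand arrays and 1940.2, 1772.5 and 1763 in untreated arrays. No group overlapped another. The inhibitor raised it 2.09-fold (95% interval 1.89 to 2.33, adjusted p 2.97e-07). With the ligand it fell by 0.30 ± 0.07 on the log2 scale (adjusted p 0.012). That fall missed the threshold without untreated replicate 1 (adjusted p 0.061). Whether the ligand changes of Mep1a and Mep1b differ from each other was not tested.

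Ace, angiotensin-converting enzyme, cuts dipeptides from the end of peptides and is also known from endothelium. Probe set 1427034_at read 243, 206 and 186 in inhibitor arrays, 67, 89.6 and 114.5 in ligand arrays and 129, 144 and 90.5 in untreated arrays. Probe set 1451911_a_at read 225, 236 and 216 in inhibitor arrays, 67.7, 55 and 58.3 in ligand arrays and 143, 87.9 and 67.4 in untreated arrays. On both probe sets every inhibitor array was above every other array, and ligand and untreated arrays overlapped. With the inhibitor they rose 1.68-fold (adjusted p 0.00729) and 2.17-fold (adjusted p 0.000632). The ligand changes of -0.37 ± 0.19 and -0.55 ± 0.19 did not pass (adjusted p 0.22 and 0.0766). The change of 1451911_a_at did pass without untreated replicate 3, the lowest untreated array there (-0.76, adjusted p 0.0156), and under quantile normalization (0.0335) and median centring (0.0252). Of the 6 endothelial markers only Kdr passed the filter, at mean signals of 36 in inhibitor and 24 in untreated arrays, and Pecam1, Cdh5, Tek, Emcn and Vwf lay under it.

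**Figure D2:**
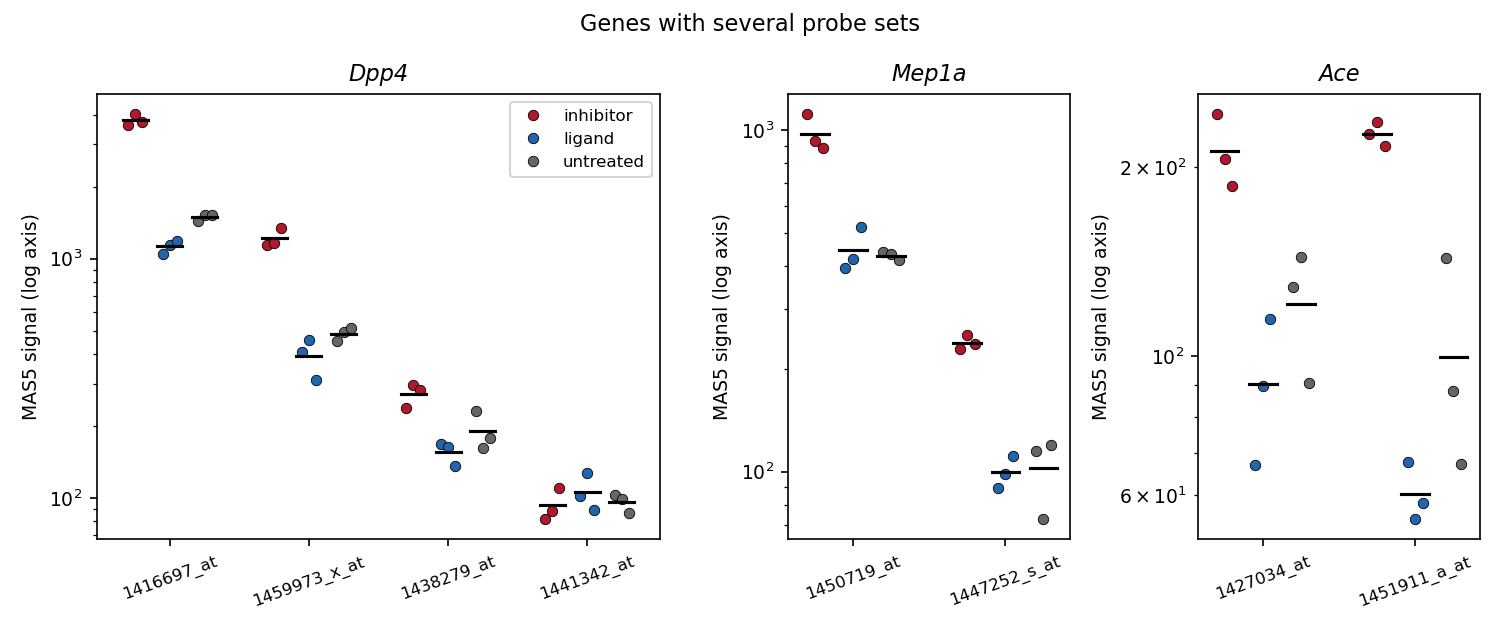
MAS5 signal on a log axis for the genes with several probe sets, Dpp4, Mep1a and Ace. Points are arrays and lines are group means. Inhibitor arrays stand above the others on every probe set except the dimmest of Dpp4, 1441342_at, where all 3 groups lie between 81.6 and 128.

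Enpep encodes aminopeptidase A, which removes acidic amino acids and converts angiotensin peptides. It read 6189.5, 6649 and 6648 in inhibitor arrays, 2205, 2135 and 2727 in ligand arrays and 5802, 5855 and 4973 in untreated arrays. The ligand arrays stood far below both other groups, and the inhibitor arrays only just above the untreated ones. With the ligand Enpep fell by 1.23 ± 0.10 on the log2 scale, to 0.425 of the untreated value (95% interval 0.366 to 0.494, adjusted p 7.19e-06). By size of log2 change it ranked 286 among all probe sets tested in that comparison. The inhibitor change was 1.17-fold (95% interval 1.01 to 1.36) and was not called (adjusted p 0.0915). It was called under quantile normalization (0.0496), in the fit of only the 2 groups compared (0.038) and without ligand replicate 3 (0.0246).

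The order of the changes thus differed between the aminopeptidases. Against untreated, Anpep had log2 changes of 1.90 with the inhibitor and -0.43 with the ligand, and Enpep had 0.23 and -1.23. The 95% intervals of the inhibitor changes were 1.70 to 2.10 for Anpep and 0.02 to 0.45 for Enpep. Those of the ligand changes were -0.62 to -0.23 for Anpep and -1.45 to -1.02 for Enpep. The difference between the genes itself was not tested, and the intervals do not overlap in either comparison.

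Lct encodes lactase-phlorizin hydrolase, the enzyme of milk sugar digestion. It read 487, 486 and 460.2 in inhibitor arrays, 768, 768 and 628 in ligand arrays and 365, 362 and 386 in untreated arrays. No group overlapped another, and the ligand arrays were highest. Lct rose 1.90-fold with the ligand (95% interval 1.66 to 2.17, adjusted p 2.34e-05) and 1.28-fold with the inhibitor (95% interval 1.12 to 1.46, adjusted p 0.00779). Ligand arrays exceeded inhibitor arrays 1.49-fold (95% interval 1.30 to 1.70, adjusted p 0.000166). Lct was the 1 member called higher in all 3 comparisons.

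Alpi encodes intestinal alkaline phosphatase, an anchored enzyme of the enterocyte surface. It read 7707.5, 9049 and 8178.5 in inhibitor arrays, 7019.9, 7048 and 8604 in ligand arrays and 9154, 9617 and 8579 in untreated arrays. The groups overlapped in all 3 comparisons, and ligand replicate 3 lay within the range of both other groups. The inhibitor change was 0.911-fold (95% interval 0.786 to 1.06, adjusted p 0.32). The ligand change was 0.826-fold (95% interval 0.713 to 0.957) and did not pass (adjusted p 0.0794). Without ligand replicate 3 it passed (log2 change -0.37, adjusted p 0.00951), as it did under quantile normalization (-0.21, 0.0265). Without that array the change between ligand and inhibitor also passed (-0.24, adjusted p 0.0321).

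**Figure D3:**
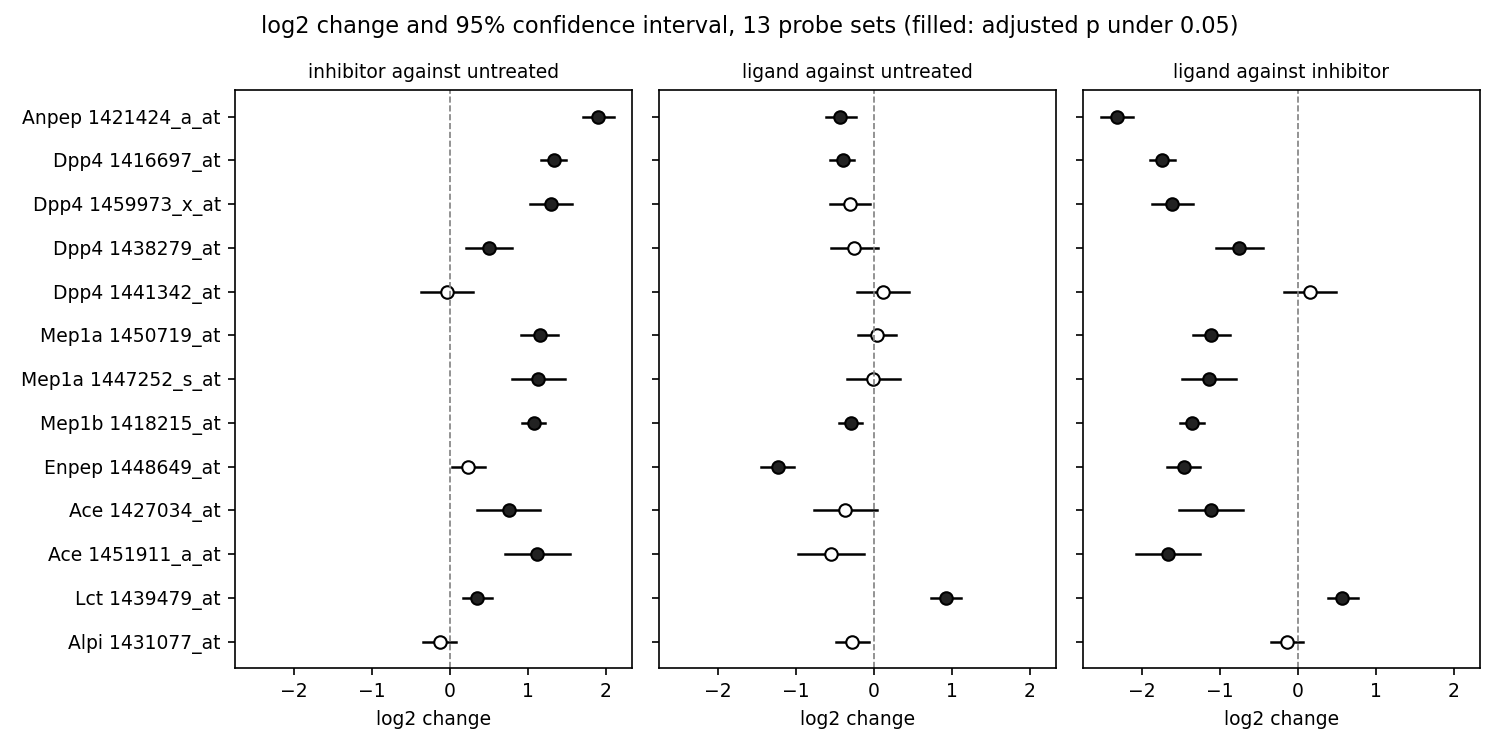
log2 change with its 95% confidence interval for the 13 probe sets in the 3 comparisons, filled where the limma adjusted p was under 0.05. Anpep lies furthest to the right for inhibitor against untreated (1.90), Enpep furthest to the left for ligand against untreated (-1.23), and Lct to the right of 0 in every panel.

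Scaling moved the ligand comparisons more than the inhibitor one. Centring each array on its median shifted the median change of all probe sets by 0.04 with the inhibitor and -0.11 with the ligand, both relative to untreated, and by -0.16 between ligand and inhibitor arrays. Over all probe sets the ligand calls were 2787 higher and 1695 lower, and after median centring 1493 higher and 2728 lower. With quantile normalization they were 2273 higher and 2208 lower. For ligand against inhibitor the calls were 8415 higher and 5129 lower, 5646 and 7281 after median centring, and 6948 and 6568 after quantile normalization. Among the hydrolases, the ligand comparison with untreated gave 1 higher and 6 lower under either scaling in place of 1 and 4. Lower calls over all 28653 probe sets tested rose as well, as given above. Ace probe set 1451911_a_at was gained under both scalings, Dpp4 probe set 1459973_x_at only under median centring and Alpi only under quantile normalization.

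Other enzymes of the same membrane moved in part with these members. Of 18 further brush border hydrolases listed, 15 had a probe set and 13 passed the filter. With the inhibitor 5 rose and 1 fell (median log2 change 0.26), where 19.9% of all genes rose and 22.6% fell with a median of -0.01. Enpp3, a nucleotide pyrophosphatase, averaged 756.3 ± 36.8 in inhibitor arrays and 239 ± 65.9 in untreated arrays (SD, n = 3 each). Its log2 change was 1.63 ± 0.14 (SE, limma adjusted p 3.19e-06). Asah2, neutral ceramidase, rose by 1.04 ± 0.10 and Cpm, carboxypeptidase M, by 1.10 ± 0.13. Akp3, a further alkaline phosphatase gene next to Alpi on chromosome 1, fell to 35.8 ± 18.2 in inhibitor arrays, against 126.1 ± 8.15 in untreated arrays, a log2 change of -1.53 ± 0.27. Its inhibitor readings were 49.2, 43.1 and 15, where the filter on low signals lay at 27.4 to 28.4 on these arrays. The size of this fall is therefore uncertain. Related phosphatase genes can share probe sequence, so the readings of Akp3 and Alpi are uncertain to that degree.

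With the ligand 5 of these 13 fell and 2 rose, where 8.04% of all genes fell and 12.8% rose. Treh, trehalase, fell by 1.10 ± 0.12, to a mean signal of 413.2 in ligand arrays against 912.5 in untreated arrays. Naaladl1, a peptidase, fell by 0.98 ± 0.15, and Mme, neprilysin, fell by 0.82 ± 0.13. The inhibitor change of Mme, -0.14 ± 0.13, missed the threshold (limma adjusted p 0.459).

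Intracellular peptidases finish the digestion of peptides taken up whole. Of 10 listed and tested, 4 rose and 1 fell with the inhibitor (median 0.12), against 19.9% and 22.6% of all genes (median -0.01). With the ligand 2 fell and 0 rose (median 0.02), against 8.04% and 12.8% of all genes (median 0.05). Cndp2, a cytosolic dipeptidase, rose by 0.49 ± 0.09 with the inhibitor and fell by 0.52 ± 0.09 with the ligand. The lysosomal Tpp1 and Dpp7 rose by 0.43 ± 0.07 and 0.68 ± 0.11 with the inhibitor. Thop1, thimet oligopeptidase, fell by 0.37 ± 0.08.

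The carriers that take up the products were tested for all 10 listed genes. With the inhibitor 4 rose and 2 fell (median 0.30), the falls being near the 22.6% of all genes that fell, and 19.9% rose. With the ligand 8 fell and 0 rose (median -0.80), where 8.04% of all genes fell and 12.8% rose. Slc15a1, the peptide transporter PEPT1, rose by 1.39 ± 0.14 with the inhibitor, and Slc3a1, a subunit of the cystine and basic amino acid exchanger, by 1.40 ± 0.08. With the ligand Slc3a1 fell by 0.88 ± 0.08, its partner Slc7a9 by 0.87 ± 0.10, and the neutral amino acid carrier Slc6a19 by 1.02 ± 0.11. Slc1a1, a carrier of acidic amino acids, had an inhibitor log2 change of -1.80 ± 0.12, and Slc2a5, the fructose carrier, fell with the ligand by 1.30 ± 0.10. Both also fell with the other treatment. The ligand change of Slc1a1 was -0.46 ± 0.12 (limma adjusted p 0.0246) and the inhibitor change of Slc2a5 was -0.55 ± 0.10 (limma adjusted p 0.00107). Microvillus proteins rose in 13 of 16 tested genes with the inhibitor (median 0.47), where 19.9% of all genes rose. They fell in 6 with the ligand (median -0.19), where 8.04% of all genes fell. Cdhr2 and Cdhr5, the cadherins that link neighbouring microvilli, rose by 0.87 ± 0.08 and 0.84 ± 0.11.

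**Figure D4:**
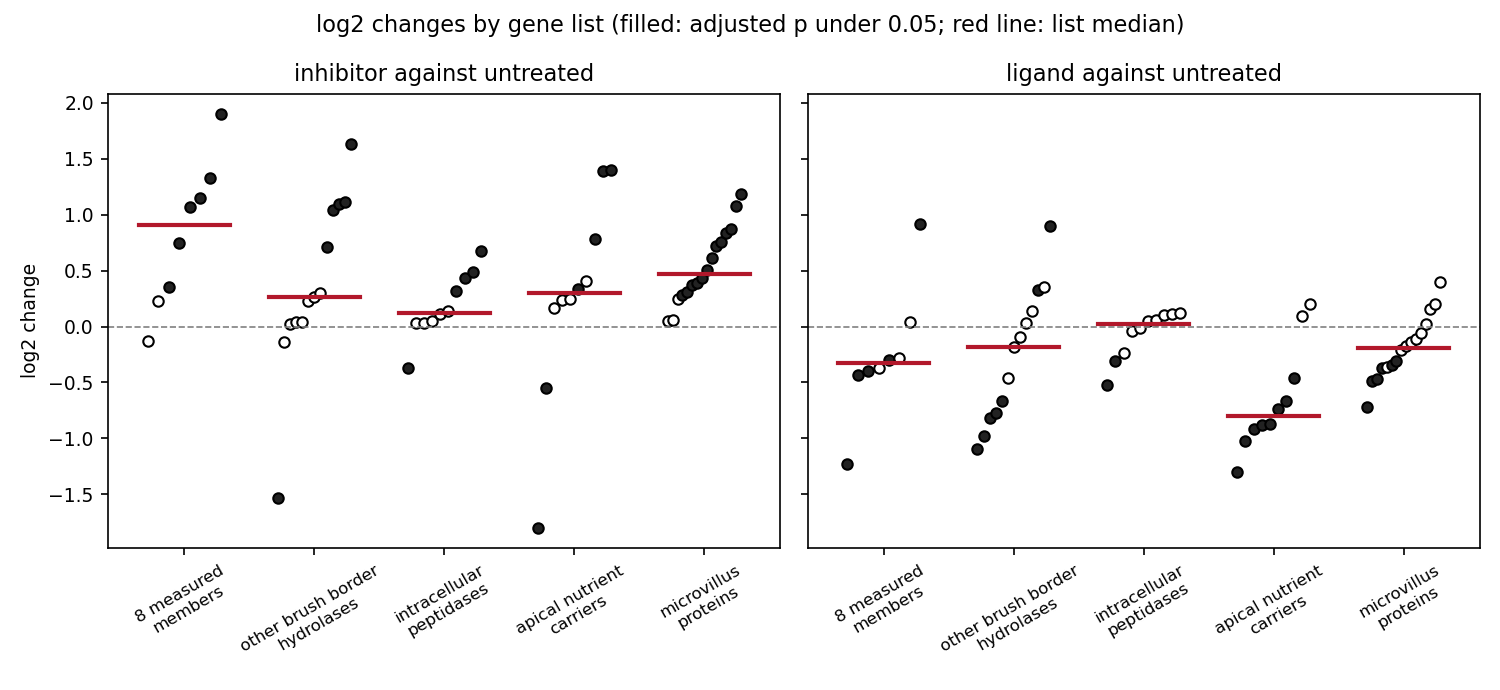
log2 changes of single genes, by main probe set, for the 8 measured members and 4 further lists, with the inhibitor on the left and the ligand on the right, both against untreated. Filled points passed the limma test and red lines are list medians. Median changes were 0.91 and -0.33 for the members, 0.26 and -0.18 for other hydrolases, 0.12 and 0.02 for intracellular peptidases, 0.30 and -0.80 for carriers and 0.47 and -0.19 for microvillus proteins.

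Across the 9 arrays the members' log2 signals followed each other closely in part, which describes arrays that share treatments. Dpp4 correlated with Anpep and with Mep1b at a Pearson r of 0.99 in each case, and Mep1a with Anpep at 0.95. Enpep correlated with Anpep at 0.73, Alpi with Anpep at 0.11, and Lct with Enpep at -0.86. Outside the group, the gene most like Anpep was Sdcbp2 (r 0.999), and for Dpp4 it was the cytochrome Cyp2c55 (r 0.999). Mep1b was most like Myo5b (r 0.999), the motor gene of apical vesicle traffic. Enpep was most like the cytochrome Cyp4f14 (r 0.998), followed by the glucose carrier Slc2a2 (r 0.995). Lct was most like Clu (r 0.985), and Alpi most like Zfyve21 (r 0.977). These values describe n = 9 arrays and 12941 genes searched, and are not tests.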

How the data were processed

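RNA from 9 organoid samples was hybridised to expression arrays. Per the submitters' processing notes the authors summarised them with MAS5 (version not given in the sources used here), and the deposited values are linear intensities. The trimmed mean was 350.0 on every array and the medians were 46.1 to 57.9. No label describes the scaling step. MAS5 leaves dim signals noisy. All 9 columns were used. The number of arrays limits the precision.

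Names came from the platform annotation, in which 34958 of 45101 had 1 gene symbol, 932 several and 9211 none. The 64 control probe sets were left out. Signals became log2(signal + 16), which understates changes of dim genes. A probe set was tested where it passed its array's 40th percentile (signals of 25.9 to 32) on at least 3 arrays. limma 3.58.1 in R 4.3.3 fitted 1 mean per group to all 9 arrays (6 residual degrees of freedom) with an intensity trend, 2-sided tests and Benjamini-Hochberg adjustment over 28653 probe sets. A gene's main probe set has the highest mean, with _x_at only where no other exists. The same adjusted p served for main probe sets. The pipeline was tested on simulated data.

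The members and all gene lists were chosen with earlier results of these data known. Genes named from lists are among the 4 with the smallest p per comparison, and genes like a member are among the 3 with the highest correlation. Markers named for presence or absence fall outside this rule. Alternatives changed the offset, filter, scaling, variance model, groups fitted, replicate block, probe sets tested or left out 1 array. Replicate numbers were not taken to pair arrays, since the correlation of same-numbered deviations was -0.06 to 0.11.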

Additional observations from a re-analysis of the deposited data

How the results depend on the processing

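Over 39 changes of 13 probe sets in 3 comparisons, recomputed under 19 alternatives, 712 of 726 values stayed on the same side of the threshold. In 3 a call was lost, in 11 a call was gained, and in 0 a called change turned round. All 14 are given beside their genes in the report except Dpp4 probe set 1459973_x_at, whose ligand change passed under median centring (-0.42, adjusted p 0.0234) and without ligand replicate 2 (-0.43, 0.0365). With 1 main probe set per gene, inhibitor against untreated had 6 calls and ligand against inhibitor had 7, since only 8 of the 13 probe sets were then tested. Of all 12941 main probe sets, 45.1% and 55.5% were called in these comparisons. Leaving out 1 array gave 9 to 11 calls for inhibitor against untreated, 4 to 6 for ligand against untreated and 11 to 12 for ligand against inhibitor. Of all probe sets tested, 29.1% to 38.3%, 10.2% to 15.5% and 41.5% to 47% were then called. The fit with the replicate block gave 10, 5 and 11 calls, as without it, and changed no call of the 13 probe sets. The shares of all probe sets called were 34.3%, 14.5% and 46.6%, against 35.1%, 15.6% and 47.3% without it. The arrays share numbers only, with no pairing in the labels. Without the filter the share of all probe sets called fell to 20.2%, against 35.1%, for inhibitor against untreated, and to 8.39%, against 15.6%, for ligand against untreated. Leaving out untreated replicate 1 gave 10.2% there. Changes of dim probe sets, such as those of Ace and of Dpp4 1441342_at, rest on signals of 55 to 243.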

Other observations

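Of 14 tested transcription factors known from enterocytes, 4 rose and 3 fell with the inhibitor, near the shares of all genes that rose (19.9%) and fell (22.6%). With the ligand 2 rose and 4 fell, against 12.8% and 8.04% of all genes. Hnf4g, a nuclear receptor of enterocytes, averaged 913.3 in inhibitor arrays and 592.5 in untreated arrays, a log2 change of 0.62 ± 0.12 (SE, n = 3 arrays each, limma adjusted p 0.00145). With the ligand it averaged 283.6 and fell by 1.01 ± 0.12. Its relative Hnf4a, outside the naming rule, had log2 changes of 0.04 ± 0.09 with the inhibitor (adjusted p 0.733) and by -0.15 ± 0.09 with the ligand (adjusted p 0.291), neither called. Maf rose by 1.00 ± 0.13 with the inhibitor and Creb3l3, a regulator of lipid genes, by 0.93 ± 0.13. Gata5 averaged 402.5 in ligand arrays and 192.2 in untreated arrays, a log2 change of 1.01 ± 0.09, while its inhibitor change of -0.16 ± 0.09 missed the threshold (adjusted p 0.211). Also outside the naming rule, Gata4 fell with the ligand (-0.30 ± 0.09, limma adjusted p 0.0474). Gata6 was not called with either treatment. Cdx1 and Cdx2 fell with the inhibitor (-0.37 ± 0.10 and -0.22 ± 0.08, limma adjusted p 0.0105 and 0.049) and were not called with the ligand.

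Genes known from the villus tip rose in 9 of 11 tested members with the inhibitor and fell in 1, where 19.9% of all genes rose and 22.6% fell. With the ligand 3 rose and 3 fell, where 12.8% of all genes rose and 8.04% fell. The list shares genes with other lists, such as Krt20 with the absorptive enterocyte markers and Creb3l3 and Klf4 with the transcription factors. Its counts are therefore not independent of theirs. Clca4a rose with both treatments, by 1.53 ± 0.14 with the inhibitor and 0.67 ± 0.14 with the ligand. Lct also rose with both, but the order differed. Between ligand and inhibitor arrays Clca4a was lower with the ligand (-0.86 ± 0.14, limma adjusted p 0.000289), and Lct was higher (0.57 ± 0.09, limma adjusted p 0.000166). Enpp3, which is also in the hydrolase list, had a ligand change of 0.03 ± 0.14 (adjusted p 0.914).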
